A study of Rattus norvegicus with 12 samples.

Results

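The S100 proteins are small calcium-binding proteins, and 8 of their genes (S100a1, S100a4, S100a6, S100a8, S100a9, S100a10, S100a11 and S100b) are described here in the lumbar spinal cord of rats after spinal cord injury (SCI). They were taken by symbol from a table of 23526 genes, where each symbol had 1 row, and all 8 were among the 18714 genes tested. RNA sequencing of whole tissue from segments L3 to L5 gave 3 libraries each at day 3, day 7 and day 14 after SCI, and 3 sham libraries labelled day 0. All groups are rat tissue of the same segments, and strain, sex, age, and the level and kind of the injury were not given in the sources used here. There was 1 sham group, so the comparisons of the 3 SCI days with sham share the same 3 sham libraries. Nothing in the labels says that the libraries of a group are from different animals, and p-values here therefore cover only the spread among the libraries as deposited, which may be technical.

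An S100 protein works mostly as a pair of subunits that opens when calcium binds and then docks onto target proteins inside the cell, such as annexins and myosins. S100a10 is the exception in this family, since it no longer binds calcium and is held open. Some members leave the cell and act on receptors such as Ager (RAGE) and Tlr4. In the nervous system S100b is the classical protein of astrocytes and other glia, S100a8 and S100a9 are the calprotectin pair of neutrophils and monocytes, and S100a4, S100a6, S100a10 and S100a11 are known from reactive, migrating and non-neuronal cells.

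Of the 8 genes, 7 lay on rat chromosome 2 and S100b lay on chromosome 20 (chr20:12372881-12394743, minus strand). S100a1, S100a4, S100a6, S100a8 and S100a9 stood within 199 kb, and S100a11 (chr2:179191715-179197044, plus strand) and S100a10 (chr2:179220887-179229661, plus strand) stood within 37.9 kb on the far side of a gap of 2999 kb. These are the coordinates of the gene table, whose build was not given in the sources used here. RefSeq promoter windows on the build GRCr8, from 250 bases before to 50 bases after the start of the gene, matched 5 of the 8 members. The windows of S100a11, S100a4 and S100a9 are printed 5′ to 3′ because they stand for the annexin-binding, the cytoskeletal and the calprotectin members. Capitals mark the letters TATAAA of the TATA box, where the window holds them.
S100a11: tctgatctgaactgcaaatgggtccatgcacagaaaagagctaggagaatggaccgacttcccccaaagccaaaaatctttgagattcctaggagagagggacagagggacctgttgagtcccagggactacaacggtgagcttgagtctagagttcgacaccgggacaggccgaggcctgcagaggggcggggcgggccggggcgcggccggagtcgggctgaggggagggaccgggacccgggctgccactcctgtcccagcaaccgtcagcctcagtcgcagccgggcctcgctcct
S100a4: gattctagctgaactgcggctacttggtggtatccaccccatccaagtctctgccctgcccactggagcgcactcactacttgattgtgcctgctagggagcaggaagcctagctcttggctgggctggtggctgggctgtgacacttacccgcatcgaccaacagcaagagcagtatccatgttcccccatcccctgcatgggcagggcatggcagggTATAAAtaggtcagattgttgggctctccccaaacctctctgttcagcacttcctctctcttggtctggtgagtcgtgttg
S100a9: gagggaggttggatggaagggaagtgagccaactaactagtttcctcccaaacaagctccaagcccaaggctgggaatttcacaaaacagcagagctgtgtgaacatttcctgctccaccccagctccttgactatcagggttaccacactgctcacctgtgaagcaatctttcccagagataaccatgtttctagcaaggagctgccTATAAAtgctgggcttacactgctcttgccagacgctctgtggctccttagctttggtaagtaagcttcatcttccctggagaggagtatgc
They lie at chr2:181874882-181875181 (plus strand), chr2:178388279-178388578 (plus strand) and chr2:178490573-178490872 (minus strand) on GRCr8. The S100a11 window had 63.0% G and C and 18 CpG sites and did not hold TATAAA. The S100a4 window had 56.3% and 5 CpG sites, with TATAAA starting 31 bases before the start, and the S100a9 window had 1 CpG site and the lowest share of G and C of the 5, with TATAAA 42 bases before it. The S100a6 window (61.3%, 15 CpG sites) and the S100b window (54.0%, 5 CpG sites) did not hold TATAAA. Over all 33469 promoters of the table the median was 51.7% G and C and 7 CpG sites, and 8.8% held TATAAA on the given strand. Searched on both strands, TGANTCA (AP-1, in 7.33% of all promoters), TTGCNNAA (C/EBP, 10.6%), TTCNNNGAA (STAT, 8.87%) and GGGA and TTCC with 2 letters between them (NF-kB, 1.3%) were not in these 5 windows.

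Library totals ran from 63010295 to 79072710 counts, and groups held libraries that differed in tissue makeup. Summed CPM (counts scaled to the library total) of 8 Schwann cell markers, as of nerve roots, were 12388 to 47355 at SCI day 3, 2013 to 16467 at SCI day 7 and 12550 to 22967 at SCI day 14, against 5118, 40443 and 6515 in sham replicates 1, 2 and 3. Summed CPM of 8 neuron markers were 289 and 228 in SCI day 3 replicates 1 and 3, against 3962 in SCI day 3 replicate 2 and 3413 to 4686 in sham. Scn10a, which encodes a sodium channel of dorsal root ganglion neurons, stood at 19.9 CPM in SCI day 3 replicate 2, and at 78.8 CPM in replicate 1 and 131 CPM in replicate 2 of SCI day 14, while no other library was above 1.06 CPM. In whole tissue, fewer cells of a type and less RNA per cell cannot be told apart.

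Per gene length, S100b was the most abundant of the 8 in each group. Its FPKM (fragments per kilobase of gene and per library total) averaged 765 ± 91.3 at SCI day 3, 882 ± 33.2 at SCI day 7 and 1159 ± 147 at SCI day 14, against 1131 ± 51.2 in sham (SD, n = 3 each). In none of the groups did its libraries overlap those of the next member. S100a10 was second at day 3 with 171 ± 43.3 FPKM and at day 7 with 76.0 ± 22.8, while S100a6 was second at day 14 with 89.6 ± 24.5 and in sham with 47.7 ± 48.3, and these 2 genes overlapped in each group. S100a11 was 4th by mean at day 3 with 84.3 ± 53.5 FPKM, and 7th in sham with 7.40 ± 5.77, and overlapped with its neighbours in rank both times. S100a8 had the lowest mean at day 7, at day 14 and in sham, but overlapped with the next member at day 14 and in sham. S100a1 was lowest at day 3 with 6.59 ± 1.92 FPKM, below S100a8 with 10.6 ± 2.23 and with no overlap. S100b made up 60.2 ± 9.13% of the summed FPKM of the 8 genes at day 3, 78.9 ± 5.79% at day 7 and 81.6 ± 4.39% at day 14, against 89.4 ± 8.47% in sham. The other 7 together measured 514 ± 154, 241 ± 80.2 and 267 ± 99.8 FPKM at the 3 days, against 145 ± 135 in sham, where replicate 2 alone reached 301.

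**Figure D1:**
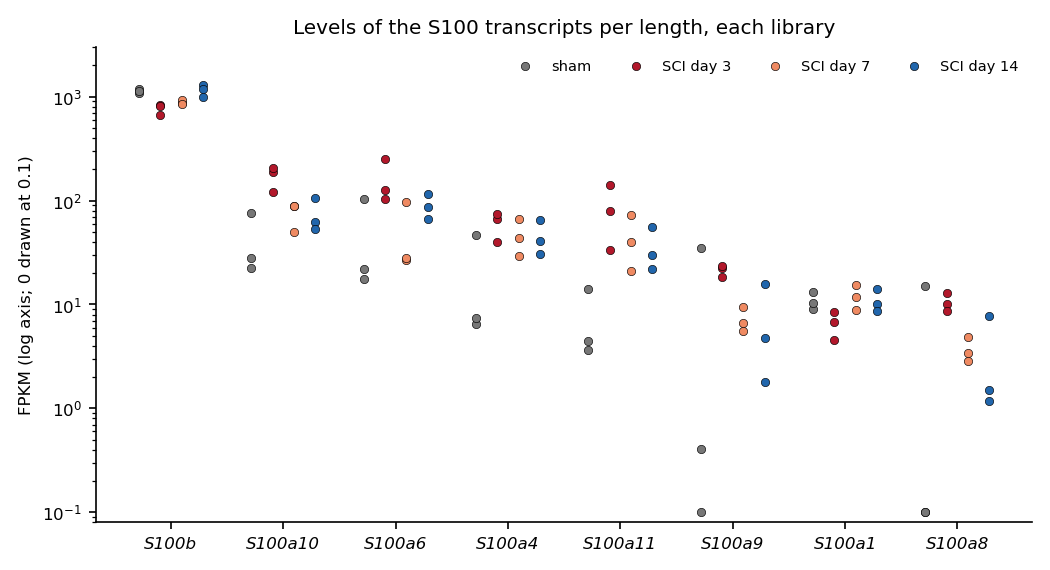
Level of each S100 transcript per gene length in the 12 libraries, in FPKM on a log axis, with 1 point per library and a value of 0 drawn at 0.1. S100b lies above the others in each group, and S100a8 and S100a9 each have sham libraries at or near 0 beside one at 14.9 and 34.7 FPKM.

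At SCI day 3, S100a11 and S100a10 rose against sham, S100a4 and S100a6 had higher means that did not pass the test, and S100a1 and S100b had lower means that did not pass it. In edgeR's quasi-likelihood test with Benjamini-Hochberg adjustment over all genes, 2 of the 8 members passed at 0.05, both higher, where 5.5% of all genes tested passed as higher and 1.2% passed as lower. The median log2 fold change was 1.32 over the 8 members and 0.03 over all genes tested. The day 3 and sham libraries did not overlap for 4 members, 2 of them higher (S100a10 and S100a11, where 21.2% of all genes did so) and 2 lower (S100a1 and S100b, where 15.9% did). At SCI day 7 and at SCI day 14, 0 of the 8 members passed, where 0.016% of all genes passed on each day, all of them higher and 0% lower. Day 7 and sham did not overlap for S100a11, which was higher as in 13.9% of all genes, and for S100b, which was lower as in 9.73%. Day 14 and sham did not overlap for S100a11, higher as in 11% of all genes. At an unadjusted p under 0.05 there were 6 members at day 3 (35.3% of all genes), 2 at day 7 (9.89%) and 1 at day 14 (7.4%).

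**Figure D2:**
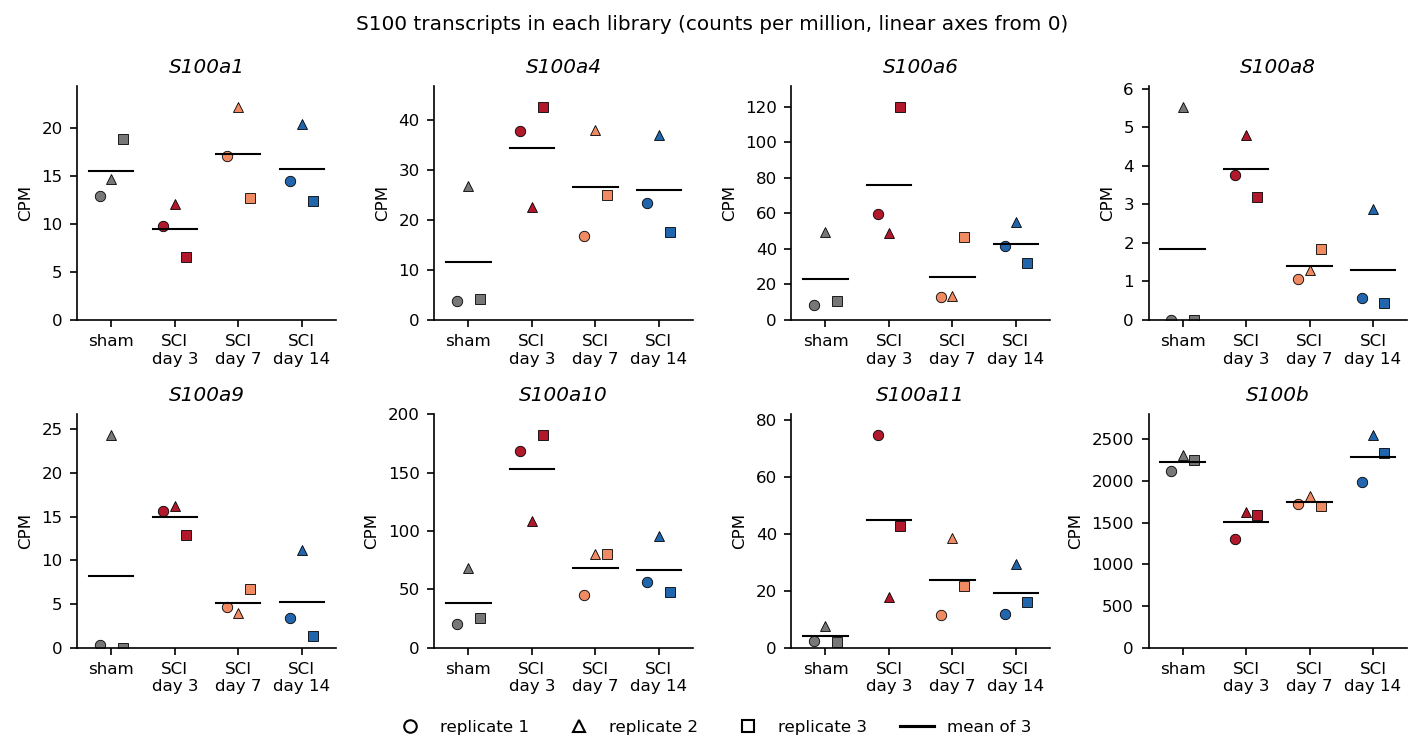
CPM of the 8 S100 transcripts in each library, on linear axes from 0, with a bar at the mean of 3 libraries and a symbol for the replicate number. S100a11 is higher in all 9 SCI libraries than in the 3 sham libraries, while S100a4, S100a6, S100a8 and S100a9 each have 1 high sham library, replicate 2.

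S100a11 binds annexin A1 and takes part in the repair of damaged cell membranes. It measured 74.6, 17.6 and 42.6 CPM at SCI day 3, 11.3, 38.5 and 21.5 CPM at SCI day 7 and 11.7, 29.4 and 16.1 CPM at SCI day 14, against 2.40, 7.49 and 1.97 CPM in sham (replicates 1, 2 and 3 of each group). Each of the 9 SCI libraries lay above each of the 3 sham libraries, which 4.37% of all genes tested did. At day 3 its mean was 44.9 ± 28.6 CPM, against 3.95 ± 3.07 CPM in sham (SD, n = 3 each). That rise was 3.47 on the log2 scale (SE 0.713, 95% interval 1.89 to 5.05), or 11.1-fold, with an edgeR adjusted p of 0.0358. The log2 fold change was 2.54 at day 7 (SE 0.687, interval 1.02 to 4.06, edgeR adjusted p = 0.273) and 2.24 at day 14 (SE 0.679, interval 0.74 to 3.75, edgeR adjusted p = 0.594), and the libraries did not overlap with sham on either day. Averaged over the 3 days it was 2.75 (SE 0.634, interval 1.35 to 4.15, edgeR adjusted p = 0.132), and 0 members passed in that contrast, where 0.0481% of all genes did.

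S100a10, known as p11, binds annexin A2 in a complex that brings plasminogen activation and ion channels to the cell surface. It measured 168.7, 109 and 182 CPM at SCI day 3, 44.8, 79.9 and 80.7 CPM at SCI day 7 and 56.0, 95.7 and 47.3 CPM at SCI day 14, against 20.2, 68.4 and 25.2 CPM in sham. The day 3 libraries were above the libraries of all other groups, and at day 7 and day 14 they overlapped with sham through sham replicate 2. At day 3 the mean was 153 ± 39.1 CPM, against 38.0 ± 26.5 CPM in sham (SD, n = 3 each). That rise was 1.99 on the log2 scale (SE 0.469, interval 0.95 to 3.03), or 3.98-fold, with an edgeR adjusted p of 0.0398. Later it was 0.81 at day 7 (SE 0.455, edgeR adjusted p = 0.612) and 0.78 at day 14 (SE 0.455, edgeR adjusted p = 0.794).

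The 2 calls at day 3 held in 14 of 23 settings for S100a11 and in 12 of 23 for S100a10, with the change positive in all of them. Without sham replicate 1 or 3 the log2 fold change was 3.23 and 3.15 for S100a11 (edgeR adjusted p = 0.147 and 0.164) and 1.70 and 1.77 for S100a10 (0.149 and 0.165). In fits lacking replicate 1 or 3 of SCI day 3 it was 2.94 and 3.48 for S100a11 (0.107 and 0.106) and 1.95 and 1.81 for S100a10 (0.118 and 0.117). SCI day 7 replicate 2 and SCI day 14 replicate 3 are of other groups and enter through the gene filter, the scaling and the shared spread. Leaving out the former or the latter gave edgeR adjusted p-values of 0.0546 and 0.0574 for S100a11 and of 0.0616 and 0.0590 for S100a10. For S100a10 the value was also over the limit without SCI day 7 replicate 3 (0.0527) and without SCI day 14 replicate 1 (0.0548). SCI day 3 replicates 1 and 3, the libraries with few neuron markers, held the higher 2 of the 3 day 3 values of both genes. The summed CPM of 6 endothelial markers was 1425, 622 and 841 at day 3, against 350, 407 and 299 in sham. Of the 6, 5 rose, where 5.5% of all genes did. At day 3 the sum was lowest in replicate 2, as were S100a10 and S100a11. At day 7 the sum (634, 537 and 684) was lowest in replicate 2, where S100a11 was highest. At day 14 (453, 488 and 557) it was highest in replicate 3, where S100a10 was lowest. The summed CPM of 10 monocyte and border macrophage markers was 310 to 1204 in the 9 SCI libraries, above the 144 to 221 in sham. SCI day 3 replicate 2 was the lowest of its group. Fn1 alone held 260 of 310 CPM in SCI day 14 replicate 1 and 169 of 221 CPM in sham replicate 2. With each marker weighted alike, as mean log2(CPM + 1) minus the sham mean, SCI and sham overlapped. SCI day 14 replicate 1 then stood at 0.28 and sham replicate 2 at 0.50. The part of endothelial cells, monocytes and macrophages in the S100a10 and S100a11 values was not tested. Another fit left out the 3 libraries under 100 CPM of the neuronal transporter Slc12a5 (SCI day 3 replicates 1 and 3 and SCI day 14 replicate 2). It kept only replicate 2 at SCI day 3, and the log2 fold change was 2.13 for S100a11 and 1.50 for S100a10. Without the 3 libraries over 10 CPM of Scn10a (SCI day 3 replicate 2 and SCI day 14 replicates 1 and 2) it was 3.85 for S100a11 and 2.19 for S100a10. That fit kept only replicate 3 at SCI day 14. Both fits left a group with a single library, so only the sizes of change are given.

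**Figure D3:**
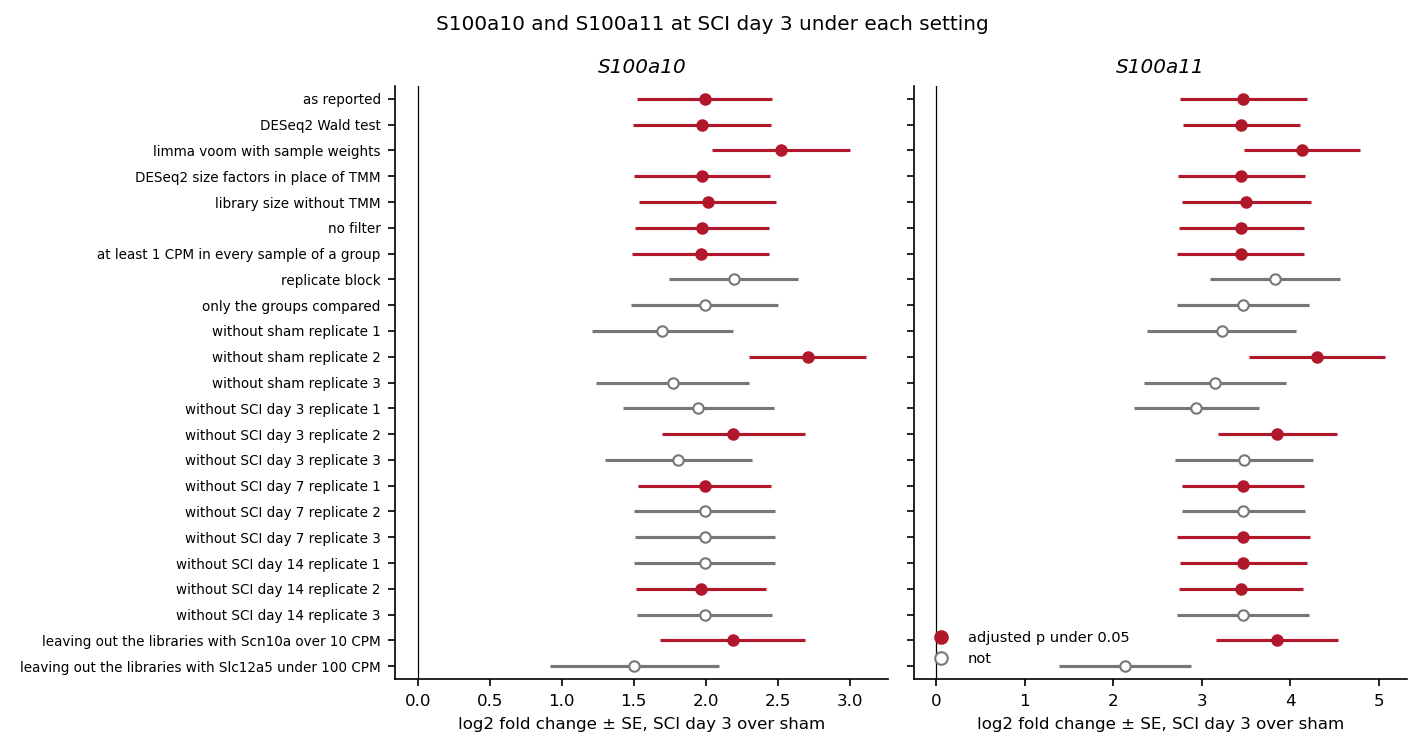
Log2 fold change of S100a10 (left) and S100a11 (right) at SCI day 3 over sham, with its SE, under each of 23 settings, filled where the adjusted p is under 0.05. The change is positive in each setting, from 1.50 to 2.71 for S100a10 and from 2.13 to 4.30 for S100a11, and passes in 12 and 14 of them.

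S100a11 and S100a10 are neighbours on chromosome 2 but did not keep a fixed ratio. The FPKM of S100a11 over that of S100a10 was 0.272 to 0.745 at day 3, 0.424 to 0.813 at day 7 and 0.351 to 0.573 at day 14, against 0.131 to 0.199 in sham, so that SCI and sham libraries did not overlap. The ratio of S100a10 to its partner Anxa2 was 4.58 to 5.99 at day 3, 4.83 to 6.02 at day 7 and 3.23 to 4.29 at day 14, against 4.15 to 5.22 in sham, and overlapped with sham on each day. Both ratios are descriptions, with no test. RefSeq lists pseudogene copies of S100a10 and of S100a11 in the rat, and the counting of reads that match several places was not given in the sources used here, so the split of reads between gene and copies is uncertain.

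S100a4 binds non-muscle myosin and is known from migrating fibroblasts, macrophages and reactive astrocytes, and S100a6 (calcyclin) is its neighbour on chromosome 2. S100a4 measured 37.8, 22.6 and 42.6 CPM at SCI day 3, 16.7, 38.0 and 25 CPM at SCI day 7 and 23.5, 37.1 and 17.6 CPM at SCI day 14, against 3.67, 26.7 and 4.22 CPM in sham. The SCI libraries lay above sham replicates 1 and 3 without exception and overlapped with sham replicate 2. At day 3 the log2 fold change was 1.56 (SE 0.689, interval 0.03 to 3.08, edgeR adjusted p = 0.135), and without sham replicate 2 it was 3.07 (edgeR adjusted p = 0.0472). That fit, where 524 of 19115 genes passed, was the only 1 of 12 fits lacking 1 library to call S100a4. With all 12 libraries, limma voom with sample weights also called it at day 3 (2.72, voom adjusted p = 0.0081), where 6232 of 18714 genes passed. Of all 23 settings, 2 called S100a4. With all libraries the log2 fold change at day 7 and day 14 was 1.17 and 1.16 (SE 0.682 each, edgeR adjusted p = 0.627 and 0.801).

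S100a6 measured 59.5, 49.0 and 119.7 CPM at SCI day 3, 12.9, 13.3 and 46.5 CPM at SCI day 7 and 41.5, 55.0 and 31.8 CPM at SCI day 14, against 8.45, 49.2 and 10.4 CPM in sham. SCI day 3 replicate 3 was the highest library, and sham replicate 2 stood within the range of day 3 and of day 14. The log2 fold change was 1.74 at day 3 (SE 0.731, interval 0.12 to 3.36, edgeR adjusted p = 0.122), 0.07 at day 7 (SE 0.712, edgeR adjusted p = 0.981) and 0.89 at day 14 (SE 0.717, edgeR adjusted p = 0.880). At day 3, 2 of 23 settings called S100a6. They were DESeq2 (1.73, DESeq2 adjusted p = 0.0493) and limma voom with sample weights (2.59, voom adjusted p = 0.0152), where 5150 and 6232 of 18714 genes passed. The Schwann cell markers moved with S100a6 in part of the libraries. The 2 libraries with the highest summed markers, SCI day 3 replicate 3 with 47355 CPM and sham replicate 2 with 40443 CPM, held 119.7 and 49.2 CPM of S100a6, and the 4 with the lowest, SCI day 7 replicates 1 and 2 and sham replicates 1 and 3, held 8.45 to 13.3 CPM. SCI day 3 replicate 1 went against this, with 12388 CPM of the markers, the 8th highest sum, and 59.5 CPM of S100a6, its second highest value. The summed CPM of 7 fibroblast markers of meninges and vessels was likewise highest in SCI day 3 replicate 3 with 5354, and was 796, 2720 and 768 in sham, with 0 of 7 called. The part of nerve roots and meninges in the S100a6 and S100a4 values was not tested.

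**Figure D4:**
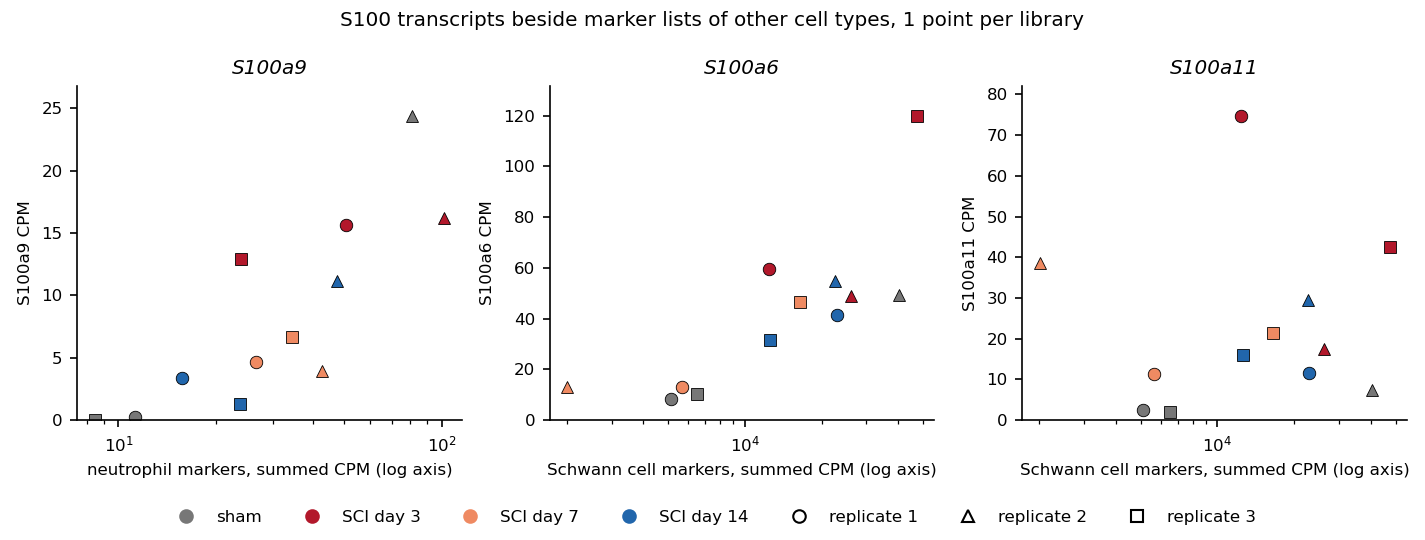
S100a9 against the summed CPM of 11 neutrophil markers, and S100a6 and S100a11 against that of 8 Schwann cell markers, with 1 point per library and a log x axis. Sham replicate 2 (grey triangle) lies apart from the other sham libraries in the 2 sums and in S100a9 and S100a6.

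S100a8 and S100a9 form calprotectin, a protein stored in neutrophils and made by monocytes, which binds metal ions and acts on Tlr4. S100a9 measured 15.7, 16.2 and 12.9 CPM at SCI day 3, 4.65, 3.94 and 6.68 CPM at SCI day 7 and 3.39, 11.2 and 1.27 CPM at SCI day 14, against 0.29, 24.4 and 0 CPM in sham. S100a8 measured 3.77, 4.81 and 3.18 CPM at SCI day 3, 1.07, 1.28 and 1.83 CPM at SCI day 7 and 0.57, 2.88 and 0.44 CPM at SCI day 14, against 0, 5.53 and 0 CPM in sham. Both genes were highest of all 12 libraries in sham replicate 2 and at or near 0 in the other sham libraries, while the 3 day 3 libraries lay close together. At day 3 the log2 fold change was 0.85 for S100a9 (SE 1.54, interval -2.57 to 4.27, edgeR adjusted p = 0.719) and 1.08 for S100a8 (SE 1.61, interval -2.49 to 4.64, edgeR adjusted p = 0.657), intervals too wide to show a change of either sign.

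These 2 comparisons rested on sham replicate 2. Sham replicates 1 and 3 together held 0 counts of S100a8 and 19 counts of S100a9. Against these 2 libraries, S100a8 was at least 169.6-fold higher at day 3, 60.0-fold at day 7 and 56.9-fold at day 14, taking 3 counts over the pair as the floor, and S100a9 was 102-fold, 34.6-fold and 36.8-fold higher. Such floors cover counting error only. Fitted without sham replicate 2, both passed at day 3 (edgeR adjusted p = 0.0472 each), as did 524 of 19115 genes. That library held the highest values of both genes, so these folds and this fit follow from leaving it out and are no separate support. That fit was the only 1 of 12 fits lacking 1 library to call either gene. With all 12 libraries, limma voom with sample weights also called both at day 3, where 6232 of 18714 genes passed. Its log2 fold change was 7.44 for S100a8 and 7.45 for S100a9 (voom adjusted p = 0.0067 and 0.0097). The weight it gave sham replicate 2 was not recorded. Of all 23 settings, 2 called each gene. The summed CPM of 11 neutrophil markers stood at 50.5, 102 and 23.9 at day 3, 26.6, 42.6 and 34.5 at day 7 and 15.7, 47.4 and 23.8 at day 14, against 11.2, 80.7 and 8.45 in sham, where 4, 0 and 5 of the 11 markers were at 0. Csf3r alone held 15.3, 32.5 and 18.4 CPM of the day 7 sums in replicates 1, 2 and 3. By fold change against the 3 sham libraries, 8 of the 11 markers were higher at day 3, 2 at day 7 and 2 at day 14. On these days 0 of the 11 passed. The part of neutrophils in the S100a8 and S100a9 values was not tested. The FPKM of S100a8 over that of S100a9 was 0.493 ± 0.0984 in the 10 libraries that held both (SD), with a range of 0.316 to 0.656, and was 0.429 in sham replicate 2.

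Sham replicate 2 was the highest sham library for all 6 members other than S100a1 and S100b, and SCI day 14 replicate 2 was likewise the highest of its group for all 6. S100b was also highest in both of these libraries. S100a1 was highest in SCI day 14 replicate 2 but not in sham replicate 2. How many of all genes follow the same order was not counted. At SCI day 7, replicate 1 was the lowest for 5 of the 6.

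S100b, made by astrocytes, oligodendrocytes and Schwann cells and used in blood as a marker of neural damage, measured 1306, 1629 and 1591 CPM at SCI day 3, 1722, 1817 and 1700.2 CPM at SCI day 7 and 1989, 2551 and 2336 CPM at SCI day 14, against 2123, 2316 and 2256 CPM in sham. Libraries at day 3 and at day 7 lay below the sham libraries without overlap, and those at day 14 lay on both sides of them. The day 3 mean was 1509 ± 177 CPM, against 2232 ± 98.8 CPM in sham (SD, n = 3 each), a log2 fold change of -0.60 (SE 0.171, interval -0.98 to -0.22, edgeR adjusted p = 0.0579). At day 7 it was -0.40 (SE 0.171, interval -0.78 to -0.02, edgeR adjusted p = 0.489), and at day 14 it was -0.0028 (SE 0.171, interval -0.38 to 0.38, edgeR adjusted p = 0.997). Without SCI day 3 replicate 2 the day 3 value was -0.65 and passed (edgeR adjusted p = 0.0177). In that fit 7087 of 19084 genes passed, and it was the only 1 of 12 fits lacking 1 library to call S100b. With all 12 libraries, DESeq2 (-0.62, DESeq2 adjusted p = 0.00028) and limma voom with sample weights (-0.63, voom adjusted p = 0.0114) also called it lower at day 3. These 2 tools called 5150 and 6232 of 18714 genes. Of all 23 settings, 4 called S100b. Of the marker lists of glia, 4 of 8 astrocyte and 3 of 8 mature oligodendrocyte markers fell at day 3, and the summed oligodendrocyte markers were 29322 to 39134 CPM, against 32454 to 69876 CPM in sham. The summed astrocyte markers were 1790 to 5756 CPM at day 3, against 2826 to 5118 CPM in sham, and overlapped with sham. At day 7 the sum was 8993 to 11447 CPM and lay above sham. Gfap alone held 7354, 8739 and 7103 CPM of it in replicates 1, 2 and 3. By fold change, 7 of the 8 astrocyte markers were lower at day 3 (median log2 fold change -1.46). At day 7, 5 were lower and 3 higher (median -0.15). Of the 8 Schwann cell markers 0 passed at day 3, with 8 of 8 log2 fold changes positive and a median of 1.16. The part of these cells in the S100b values was not tested.

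S100a1, best known from heart and skeletal muscle as a regulator of calcium release and also found in neurons and glia, measured 9.80, 12.01 and 6.55 CPM at SCI day 3, 17.0, 22.1 and 12.6 CPM at SCI day 7 and 14.5, 20.3 and 12.3 CPM at SCI day 14, against 12.9, 14.7 and 18.9 CPM in sham. The day 3 libraries lay below all libraries of the other groups, and the later days overlapped with sham. The log2 fold change was -0.76 at day 3 (SE 0.285, interval -1.39 to -0.12, edgeR adjusted p = 0.0978), 0.11 at day 7 (SE 0.283, edgeR adjusted p = 0.920) and -0.02 at day 14 (SE 0.283, edgeR adjusted p = 0.991). Without SCI day 3 replicate 2 the day 3 value was -0.96 and passed (edgeR adjusted p = 0.0338). That fit, where 7087 of 19084 genes passed, was the only 1 of 12 fits lacking 1 library to call S100a1. With all 12 libraries, DESeq2 also called it (-0.78, DESeq2 adjusted p = 0.0425), where 5150 of 18714 genes passed. Of all 23 settings, 3 called S100a1. Summed neuron markers were 228 to 3962 CPM at day 3, against 3413 to 4686 CPM in sham, and their part in the S100a1 values was not tested.

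**Figure D5:**
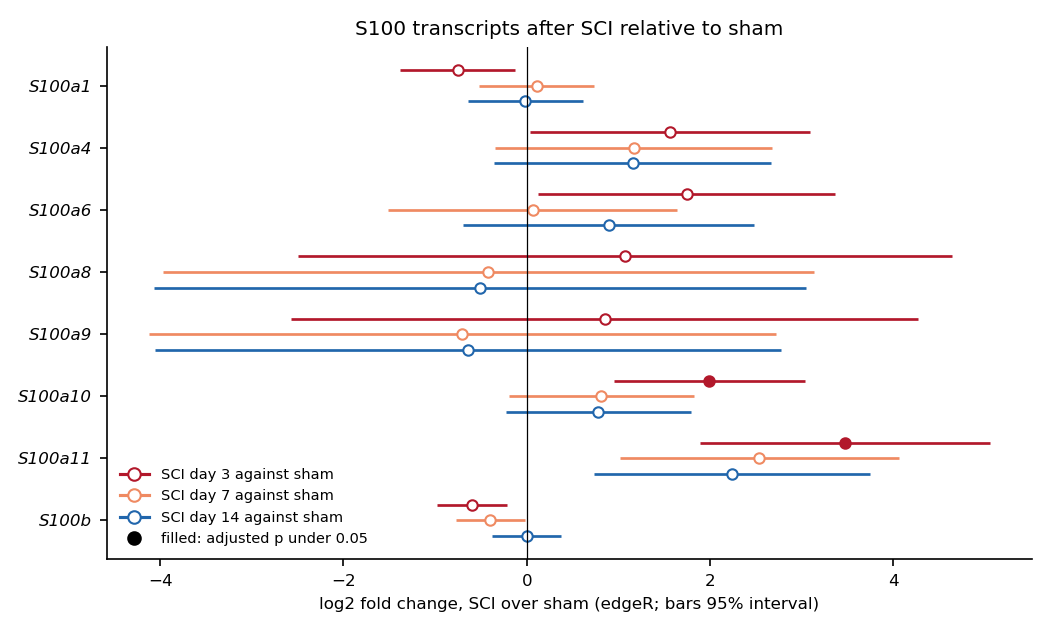
Log2 fold change of each S100 transcript at SCI day 3, day 7 and day 14 over sham, with its 95% interval from edgeR's quasi-likelihood test, filled where the adjusted p is under 0.05. S100a10 at 1.99 and S100a11 at 3.47, both at day 3, are the filled points, and the intervals of S100a8 and S100a9 span 0 widely on each day.

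Between SCI days, 0 of the 8 members passed in edgeR, and 0 of all genes did, with 2773, 686 and 3343 genes at an unadjusted p under 0.05 for day 7 against day 3, day 14 against day 7 and day 14 against day 3. For the same comparisons DESeq2 called 245, 50 and 1096 genes. Day 7 libraries lay below day 3 libraries without overlap for S100a6, S100a8, S100a9 and S100a10, 4 members where 7.76% of all genes did so, and above them for S100a1 and S100b, 2 members where 6% did so. The log2 fold change of day 7 over day 3 was -1.18 for S100a10 (SE 0.458, edgeR adjusted p = 0.323), -1.68 for S100a6 (SE 0.730, edgeR adjusted p = 0.332) and 0.87 for S100a1 (SE 0.285, edgeR adjusted p = 0.323). S100b was higher at day 14 than at day 3, with 2292 ± 284 against 1509 ± 177 CPM, a log2 fold change of 0.60 (SE 0.171, interval 0.22 to 0.98) that did not pass (edgeR adjusted p = 0.195). Without SCI day 3 replicate 2 it was 0.65 (edgeR adjusted p = 0.0281), and S100a1 at day 7 over day 3 was 1.07 (edgeR adjusted p = 0.0387). In that fit 4342 of 19084 genes passed for day 14 against day 3 and 3605 for day 7 against day 3. No other of the 12 fits lacking 1 library made either call. With all 12 libraries, DESeq2 called S100b for day 14 against day 3 (0.60, DESeq2 adjusted p = 0.0024), where 1096 of 18714 genes passed. Day 14 libraries lay above day 3 libraries without overlap for S100a1 and S100b, as in 6.78% of all genes, and below them for S100a8, S100a9 and S100a10, as in 9.62%. For day 14 over day 7 the members' median log2 fold change was -0.02, and only S100b, as 1 of 8 members, had libraries that did not overlap, higher at day 14 as in 5.77% of all genes (log2 fold change 0.39, edgeR adjusted p = 1).

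Of 9 other S100 genes listed, 6 were in the table and 4 were tested, and 0 of these passed on any day against sham. S100a16, the most abundant of them per length with 44.1 to 56.6 FPKM at day 3 against 37.9 to 45.3 FPKM in sham, had a log2 fold change of 0.24 at day 3 (SE 0.185, edgeR adjusted p = 0.366) and of 0.57 at day 7 (SE 0.185, edgeR adjusted p = 0.356), where its libraries did not overlap with sham. S100a7a, at under 0.5 FPKM in every library, had a log2 fold change of 2.71 at day 3 (SE 1.60, edgeR adjusted p = 0.244). S100a3 measured 0.59 (SE 0.732, edgeR adjusted p = 0.584) and S100a14 -0.48 (SE 0.656, edgeR adjusted p = 0.623) on the same scale.

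Among receptors of S100 proteins, Cd14, the co-receptor of Tlr4 on monocytes and macrophages, rose at day 3, as 1 of 9 tested, where 5.5% of all genes rose. It measured 47.3, 5.40 and 18.3 FPKM at day 3, against 1.32, 1.70 and 1.50 FPKM in sham, without overlap and with SCI day 3 replicate 1 highest. Its log2 fold change was 3.92 (SE 0.801, edgeR adjusted p = 0.0358). Tlr4 itself had 1.18 (SE 0.407, edgeR adjusted p = 0.0822), its partner Ly96 1.53 (SE 0.590, edgeR adjusted p = 0.102), and Mcam, an adhesion protein of vessel walls, 1.10 (SE 0.321, edgeR adjusted p = 0.0595). Ager, a receptor of which S100b is a known ligand, measured 2.02 to 2.56 FPKM at day 3, against 1.61 to 2.77 FPKM in sham, and its log2 fold change was -0.0044 (SE 0.270, edgeR adjusted p = 0.993). The list's median log2 fold change at day 3 was 0.40. At day 7 and at day 14, 0 of 9 passed. The summed CPM of 10 monocyte and border macrophage markers was 1204, 441 and 947 at day 3, against 202, 221 and 144 in sham. Fn1 alone held 999.5, 355 and 694 CPM of it at day 3, and 2 of the 10 markers rose. Their part in the Cd14 values was not tested.

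Of 16 partners inside the cell, 4 rose at day 3 and 0 fell, where 5.5% of all genes rose and 1.2% fell, with a median log2 fold change of 0.66 over the list and 0.03 over all genes. Over all genes the calls at day 3 numbered 1254, but 8 with the replicate block and 1 in the fit of only the groups compared. Iqgap1, a scaffold of the actin cytoskeleton, rose by 1.78 (SE 0.381, edgeR adjusted p = 0.0369), and Myh9, the non-muscle myosin heavy chain that S100a4 binds, by 1.84 (SE 0.398, edgeR adjusted p = 0.0369). Ezr, which links actin to the membrane, rose by 2.10 (SE 0.532, edgeR adjusted p = 0.0458) and Anxa11, an annexin bound by S100a6, by 0.84 (SE 0.220, edgeR adjusted p = 0.0487). Myh9 measured 101, 41.5 and 94.6 FPKM at day 3, against 17.5, 29.9 and 17.5 FPKM in sham, so that SCI day 3 replicate 2 was the lowest of its group, as it was for S100a10 and S100a11. Anxa2 and Anxa1, the annexins bound by S100a10 and S100a11, are named for that role and were 5th and 6th by p. Anxa2 measured 36.9, 20.3 and 44.4 FPKM at day 3, against 5.41, 15.5 and 5.38 FPKM in sham, with a log2 fold change of 1.93 (SE 0.511, edgeR adjusted p = 0.05001). Anxa1 measured 54.6, 31.0 and 122 FPKM at day 3, against 4.99, 20.0 and 4.01 FPKM in sham, with 2.83 (SE 0.795, edgeR adjusted p = 0.0553). At day 7 and at day 14, 0 of the 16 passed.

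Across the 12 libraries S100a8 and S100a9 were the pair most alike, with a Spearman correlation of log2 CPM of 0.991. S100a10 had 0.874 with S100a6 and 0.860 each with S100a4 and S100a11. S100b had -0.601 with S100a11 and -0.594 with S100a10, and 0.636 with S100a1. These are descriptions over libraries that fall in 4 groups and share tissue makeup, with no test. Among 11784 genes with a mean of at least 5 CPM, those most like S100a11 were Dab2, a clathrin adaptor, Lasp1, an actin-binding protein, and Sec61a1, a channel subunit of the endoplasmic reticulum, at 0.993 each. Those most like S100a10 were Ecm1, an extracellular matrix protein, at 0.986, and Txn1 (thioredoxin) and the ribosomal protein gene Rps16 at 0.979 each. S100a6 was most like Ctdsp1 and the tetraspanin Cd151 at 0.993 each and Vwa1 at 0.979, and S100a4 most like Nfe2l2, the antioxidant response factor, and Fkbp1a at 0.951 each and Ifih1 at 0.944. The most alike genes were for S100b Ap3s2 at 0.937, Fis1 at 0.930 and Acacb at 0.923, and for S100a1 As3mt at 0.937, Hint3 at 0.902 and Zfp184 at 0.895. For S100a8 these were Scand1 and Rab11a at 0.907 each and Tgm4 at 0.900, and for S100a9 Rab11a at 0.895 and Tgm4 and Fbxl14 at 0.888 each.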

How the data were processed

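The 12 samples were rat lumbar cord tissue, 3 in each of 4 groups, with libraries from a SMARTer mRNA-Seq kit, per the labels' protocols. Per the file headers, the authors deposited unnormalised read counts for each gene. In the FPKM columns, per the file headers, the authors had scaled counts by gene length and library total, and these were used only to compare levels between genes. The aligner, the counting tool, the use of strand and the handling of multi-mapping reads were not given in the sources used here. The submitters' processing notes list GRCm38 and mm10, which are mouse builds, although the gene identifiers are rat Ensembl identifiers.

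The filterByExpr function of edgeR, run by group, left 18714 genes and removed 4812. Counts were scaled with TMM and fitted with 1 mean per group over all 12 libraries (8 residual degrees of freedom, common biological coefficient of variation 0.432) in edgeR 4.0.16 (R 4.3.3). The test was the quasi-likelihood test with Benjamini-Hochberg adjustment over all genes and a limit of 0.05. The SE is the absolute log2 fold change over the square root of F, and so restates the test. CPM values are means ± SD of 3 libraries. The members, lists, tests and alternatives were chosen with earlier results of these data known. All 8 members are named, and from each list at most 4 genes with the smallest p at day 3; Ager, Anxa1 and Anxa2 are named besides for their roles, after their values were seen. Genes alike in pattern are the 3 with the highest Spearman correlation of log2 CPM (prior count 2). No 2 libraries were copies: between the most similar ones the chi-square was 54.5 per gene. Library totals of 63010295 to 79072710 counts give small counting error for all members but S100a8 and S100a9. Besides sham, S100a8 was low at SCI day 14, with 276 counts over 3 libraries and a lowest value of 0.44 CPM. Promoters are from RefSeq (GRCr8). The scripts were tested on simulated data. Alternatives were DESeq2 1.42.0, limma 3.58.1 voom with sample weights, other scalings and filters, a replicate block, a fit with the 2 groups compared alone, each library left out, and libraries left out by their Scn10a or Slc12a5 level. The Slc12a5 rule kept only replicate 2 at SCI day 3, and the Scn10a rule kept only replicate 3 at SCI day 14. Values for those groups in these fits rest on a single library, and their calls also depend on that group size. Symbols on the lists with no match in the table, such as S100a13, S100g and Cd36, were not analysed here.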

Additional observations from a re-analysis of the deposited data

How the results depend on the processing

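At day 3 the main test called 2 members, where 1254 of 18714 genes passed. DESeq2 called 5, limma voom with sample weights 7 and the fit without libraries over 10 CPM of Scn10a 4, while the replicate block, the fit of only the groups compared and the fit without libraries under 100 CPM of Slc12a5 called 0. Leaving out each library in turn gave 0 to 5, with 5 without sham replicate 2 and 4 without SCI day 3 replicate 2. The other scalings and filters called 2 each. The 5 of DESeq2 were S100a6, S100a10 and S100a11, higher, and S100a1 and S100b, lower, where 5150 of 18714 genes passed. The 7 of voom were S100a4, S100a6, S100a8, S100a9, S100a10 and S100a11, higher, and S100b, lower, where 6232 of 18714 passed. The fits without SCI day 3 replicate 2 and without sham replicate 2 called 7087 of 19084 and 524 of 19115 genes. At day 7, DESeq2 and voom called 1 in place of 0, S100a11. For the 3 days averaged, DESeq2 called 3, voom 7 and the fit without the Scn10a libraries 1, in place of 0, with 0 to 1 when leaving out 1 library. For day 7 against day 3 the fit without the Scn10a libraries called 1 in place of 0, and leaving out 1 library gave 0 to 1. For day 14 against day 3 DESeq2 called 1 in place of 0, and leaving out 1 library gave 0 to 1. With the replicate number as a block, the day 3 changes were 2.20 for S100a10 and 3.83 for S100a11 (edgeR adjusted p = 0.0734 and 0.0731). Of 18 same-numbered pairs, 6 had deviations from their group means correlated over 0.1 (range -0.343 to 0.247). A differently numbered pair, SCI day 3 replicate 2 and SCI day 7 replicate 1, had 0.383. Such deviations also carry tissue makeup, so this check cannot decide whether same-numbered libraries share a batch. The cause of the shifts between settings was not tested.

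Over all genes at day 3 edgeR called 1254, DESeq2 5150 (58.08% of them higher, against 82.14% in edgeR), voom 6232 (53.15%), the unfiltered fit 733, the block 8, the fit of only the groups compared 1, the fits without the Scn10a and Slc12a5 libraries 6787 (49.61%) and 1, and leaving out 1 library 1 to 7087. In place of 3 genes at day 7 DESeq2 called 513, voom 276, the fit of only the groups compared 89, the block 1 and the fits without the Scn10a and Slc12a5 libraries 8 and 12. In place of 3 at day 14 DESeq2 called 207, voom 9, the fit of only the groups compared 0, and the block and the fit without the Slc12a5 libraries 1 each. In place of 9 for the days averaged DESeq2 and voom called 1497 and 5716, the block 5 and the fits without the Scn10a and Slc12a5 libraries 2409 and 1, with 1 to 3341 when leaving out 1 library. In place of 0, leaving out SCI day 3 replicate 2 called 3605 for day 7 and 4342 for day 14 against day 3.

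In comparisons where the member did not pass in edgeR, some log2 fold changes changed sign between settings. S100a8 against sham was -0.42 at day 7 and -0.51 at day 14, but 5.99 and 5.12 in voom, 1.82 and 0.72 with the replicate block, and -1.003 to 9.63 and -1.89 to 9.54 when leaving out 1 library. S100a9 was -0.70, -0.64 and -0.17 at day 7, day 14 and over the days, but 5.88, 5.14 and 6.15 in voom, 1.47, 0.50 and 1.59 with the block, and -1.29 to 5.03, -1.84 to 5.09 and -0.75 to 5.57 when leaving out 1 library. S100a8 over the days was 0.05, with -0.54 without the Scn10a and -0.31 without the Slc12a5 libraries and -0.54 to 10.09 when leaving out 1 library. At day 14, S100a1 was -0.02 but 0.020 without TMM, and S100b was -0.0028 but 0.038 without TMM and 0.0011 in the fit of only the groups compared. Leaving out 1 library gave -0.26 to 0.15 for S100a1 and -0.10 to 0.079 for S100b at day 14, and -0.075 to 0.29 for S100a1 and -0.82 to 1.30 for S100a6 at day 7. For day 14 over day 7 it gave -0.39 to 0.058 for S100a1, -0.39 to 0.31 for S100a4, -1.48 to 0.32 for S100a8, -0.43 to 0.18 for S100a10 and -0.80 to 0.20 for S100a11. Day 7 over day 3 was 0.23 for S100a4 and 0.43 for S100a11 without the Slc12a5 libraries. S100a9 at day 14 over day 7 was 0.06, but -0.74 in voom, -0.97 with the block, -2.07 without the Scn10a and -1.14 without the Slc12a5 libraries, and -1.14 to 0.53 when leaving out 1 library.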
